A study of Homo sapiens with 6 samples.

Results

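The 75 cytosolic ribosomal protein genes described here are the symbols of the RPS and RPL series, with or without a closing A, X or L, whose mean level was above 1 CPM (counts in 1000000 counts of the library) over the 6 libraries. They are 75 of 24462 symbols, and comprise 31 RPS genes of the 40S subunit and 44 RPL genes of the 60S subunit. Another 2 symbols fit the naming pattern and stayed below the limit, RPL3L at a mean of 0.143 CPM and RPL10L at 0.0743 CPM. The lowest member above it was RPL15, at 24.3 CPM.

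MDA-MB-231 is a claudin-low, triple-negative human breast cancer cell line. The cells were transfected with a control (NC) mimic, with a miR-200a mimic (100 nM), or with the miR-200a mimic and 30 ng of a pcDNA3.1 plasmid that encodes ELK3, an ETS-family transcription factor. RNA was taken 48 h later and sequenced from the 3′ ends of mRNAs, with 2 libraries in each of 3 groups. The group labelled miR-200a plus ELK3 is called co-transfected here. All groups are transient transfections of the same line, the labels name no empty plasmid in the other groups, and neither labels nor methods say whether the replicates were separate cultures, so p-values measure only the spread between these libraries.

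Ribosomal proteins are needed in fixed proportions, and the cell makes the whole set in step. Most of these mRNAs begin with a terminal oligopyrimidine tract (5′ TOP), a C followed by a run of pyrimidines at the cap, through which mTORC1 and LARP1 control their translation and stability. Some members also act away from the ribosome, such as RPL5 and RPL11, which bind MDM2 together with the 5S rRNA.

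The sequences that bear on the 3 comparisons are the miR-200a strand, which sets what the mimic can pair with, and the transcription starts, where the TOP lies. The mature miRNA (RefSeq, GRCh38.p14, chr1:1167916-1167937, plus strand) is given with its seed, bases 2 to 8, in capitals. A 3′UTR pairs with this seed where it holds CAGTGTT.
hsa-miR-200a-3p: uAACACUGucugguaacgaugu

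Transcription starts were read in windows of 30 bases from RefSeq on GRCh38.p14, of which the first 15 lie upstream of the start and the last 15 are transcribed. Capitals mark a C followed by at least 4 pyrimidines. RPL10 and RPL14 are shown because they passed the test in 1 comparison, RPL7A and RPS3 because they are abundant and were at opposite ends of the miR-200a comparison, and RPS27 with RPS27L because the paralog lacked the tract its parent has. Of the 3 listed starts of RPL10, the printed one is the only one with the tract at the start. RPL6, which also passed, had no tract within 10 bases of either listed start, and 1 of these starts is shown.
RPL10, chrX:154398362-154398391, plus strand: caggcggaggagcgcCTCTTTCCCTTCggt
RPL14, chr3:40457324-40457353, plus strand: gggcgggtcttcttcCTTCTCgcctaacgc
RPL7A, chr9:133348203-133348232, plus strand: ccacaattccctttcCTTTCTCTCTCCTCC
RPS3, chr11:75399503-75399532, plus strand: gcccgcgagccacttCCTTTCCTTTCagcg
RPS27, chr1:153990747-153990776, plus strand: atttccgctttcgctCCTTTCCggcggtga
RPS27L, chr15:63157463-63157492, minus strand: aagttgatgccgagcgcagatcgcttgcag
RPL6, chr12:112409271-112409300, minus strand: ggggagacggcgcgtgcactgtgttcctgg

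A TOP stood exactly at a listed start in 42 of the 59 members that had a promoter entry (71.2%), and in 648 of 9314 other tested genes (6.96%). By single starts these shares were 56.8% of 74 member starts and 4.07% of all 35116 starts in the table. Within 10 bases of a start it was found in 53 of the 59 members (89.8%) and in 41.9% of the other tested genes. The TOP was searched on the transcribed strand only. The members shared this feature far more often than other genes, although the rule used only names and levels.

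**Figure D1:**
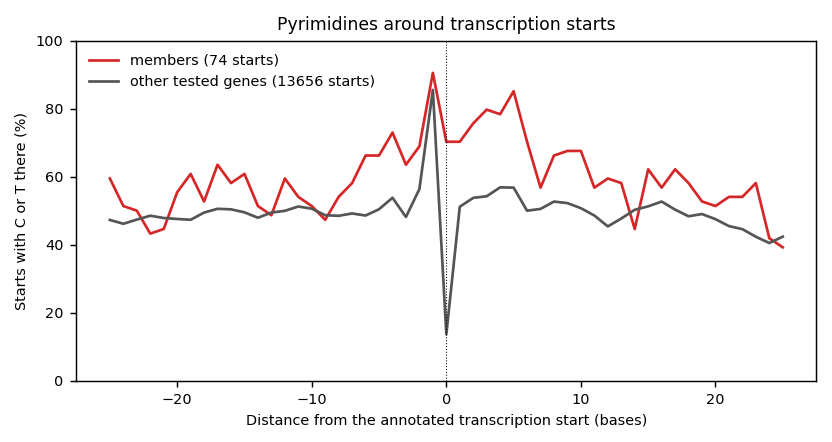
Share of annotated starts with C or T (y axis, percent) at each distance in bases from the RefSeq transcription start (x axis), for 74 starts of members and for 13656 starts of other tested genes. The member line stays above the other line over the first 10 bases after the start, and at the start itself the other line drops to 13.6% and the member line to 70.3%.

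The letters CCGGAAG, a core that ETS factors such as ELK3 can bind, were searched on both strands of the 300-base promoters (250 bases before the start and 50 after it). They were present in 22 of the 59 members (37.3%) and in 22.5% of the other tested genes, and by single starts in 35.1% of member promoters and 10.3% of all promoters in the table. In 4 members they lay near the start, from 10 bases before it to 25 after it. The GC-box GGGCGG was held by 35 of the 59 members (59.3%, against 77.2% of other tested genes), the E-box CACGTG by 4 (6.78%, against 12.6%), TATAAA by 4 (6.78%, against 745 of 9314 other genes), and AAGATGG by 8 (13.6%, against 9.62%). The searches on both strands can overlap each other, and a match is a description of the letters only.

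Ribosomal protein mRNAs have short 3′UTRs. In GENCODE release 29 on GRCh38 the median over the 75 members was 62 bases with the shortest and 95 with the longest 3′UTR among the best-supported transcripts, against 964 and 1076 bases in 11184 other tested genes. A match to the miR-200a seed lay in the 3′UTR of 7 (9.33%) or 9 members, against 18.2% or 19.3% of the other genes. The 9 members were RPL10, RPL22, RPL23, RPL28, RPL31, RPL37, RPS23, RPS27L and RPS28, and RPS27L and RPL37 had 2 matches each. These lengths come from the annotation and not from the reads, and the 3′ ends that MDA-MB-231 cells use were not analysed.

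Totals ran from 3055915 to 4868004 counts per library, so that 3 counts, taken as the least a library can show, are 0.616 to 0.982 CPM. No member was near this limit, since the lowest count of any member in any library was 49 (RPL15). VIM and CD44, which mark these mesenchymal cells, were detected in every library, and ESR1 had no count in any. In the co-transfected libraries VIM was at 1851 and 935 CPM and CD44 at 218 and 191, below all their values in the other groups. PGR stayed at 0.327 CPM or less, while ERBB2 was at 22.8 to 47.7 CPM. EPCAM was at 8.59 and 13.1 CPM with the NC mimic and at 29.3 and 28.8 with miR-200a. CDH1 was at 0.220 and 0 CPM and then at 2.30 and 2.47. ELK3 itself was at 136 and 167 CPM with the NC mimic, at 103 and 104 with miR-200a, and then at 96.0 and 77.5 in the co-transfected libraries. The ELK3 plasmid lacks an intact 3′UTR according to the study's methods, so reads from the 3′ end of the endogenous mRNA do not check that label. Of the 2 co-transfected libraries, replicate 2 stood apart: EEF1A1, the elongation factor that delivers tRNA and itself a TOP mRNA, was at 1010.4 CPM there and at 2248 CPM in replicate 1.

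The members were among the most abundant mRNAs. Their mean levels had a median of 1019 CPM, 70 of them were at 100 CPM or more and 39 at 1000 CPM or more, and they made up 37 of the 100 highest symbols and 5 of the 10 highest. A 3′-end library gives about the same number of reads for each mRNA molecule whatever its length, so levels were compared between genes as CPM. From here on, CPM values of single genes are on library sizes scaled by TMM.

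The highest member was RPS3, which lies at the mRNA entry of the 40S head. It was at 5159 and 4117 CPM with the NC mimic, at 5105 and 5275 with miR-200a, and then at 4547 and 5046 in the co-transfected libraries. RPS27A, made as a fusion of ubiquitin and a 40S protein, was at 4456 and 4171 CPM, then 4141 and 3949.9, then 4738 and 6291. The NC mimic replicates of RPS3 were further apart than its miR-200a replicates, and the last RPS27A library was above the other 5.

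RPS29, a small zinc-binding protein of the 40S head, was at 5237 and 4223 CPM with the NC mimic, at 4322 and 4416 with miR-200a, and then at 4419 and 3658 in the co-transfected libraries. RPS24, a 40S body protein, was at 3871 and 3402, then 3964 and 3906, then 4153 and 4616 CPM. RPL26, beside the exit of the peptide tunnel, was at 3967 and 3586, then 3599 and 3549.9, then 3988 and 4409.6 CPM. The order of these 5 changed from library to library. RPS29 was above RPS3 in NC mimic replicates 1 and 2, with overlapping ranges. It was below RPS3 in the other 4 libraries, without overlap in the miR-200a or the co-transfected group. RPS27A overlapped both in the NC mimic group.

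At the other end were RPL15 (24.3 CPM of the library total), RPL21 (37.0), RPS26 (55.0), RPL39L (62.3), RPL7 (76.2) and, above 100 CPM, RPL13A (111). Processed pseudogenes share sequence with several of these. The files list 27 ribosomal protein pseudogene symbols, 26 of them with counts, led by RPL13AP5 at 456 CPM, RPS14P3 at 347, RPL13AP20 at 124, RPS18P9 at 117 and RPS26P11 at 59.1. RPL13AP5 was thus above RPL13A and RPS26P11 above RPS26. How reads that fit several places were counted is not given in the sources used here. The levels of RPL13A, RPS26 and any other members with copies, listed or not, are therefore uncertain. The listed pseudogenes' total amounted to 1.34% to 1.46% of the members' counts in each library. This total leaves out any reads that were not counted.

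Together, the members took 9.19% and 8.63% of the reads counted with the NC mimic, while their share was 8.51% and 8.51% with miR-200a, and then 8.66% and 9.60% in the co-transfected libraries. The miR-200a libraries were nearly identical and lower than the other 4, and the last library was the highest. Group means were 8.91% ± 0.392, 8.51% ± 0.002 and 9.13% ± 0.666 (SD, n = 2 each). The share was 0.403 percentage points lower with miR-200a than in the control, for which an exact two-sided permutation test gave p = 0.333, the smallest p that 2 libraries against 2 can reach. The difference between the co-transfected libraries and miR-200a was 0.625 points (exact permutation p = 0.333) and that from the NC mimic 0.222 points (exact permutation p = 0.667). RNA came from whole cultures, so less of these mRNAs in every cell and fewer cells that are rich in them cannot be told apart. The 40S genes took 50.9% to 52.7% of the members' counts in the 6 libraries, so the balance of the subunits was almost constant.

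**Figure D2:**
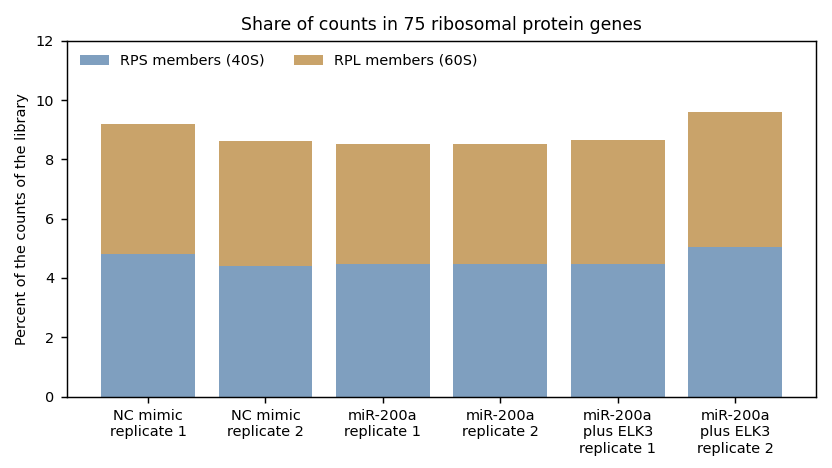
Percent of each library's counts (y axis, from 0) in the 31 RPS and 44 RPL members, stacked, for the 6 libraries (x axis). Totals run from 8.51% to 9.60%, the 2 miR-200a bars are level, and the bar of miR-200a plus ELK3 replicate 2 is the tallest.

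Replicates differed most in the co-transfected group. The absolute log2 difference between its 2 libraries had a median of 0.26 over the members, against 0.10 in the NC mimic group and 0.03 in the miR-200a group. It exceeded 0.2 in 43, 9 and 1 of the 75 members, respectively. The widest was RPL15, a 60S protein, at 35.3 CPM in replicate 1 and 11.5 in replicate 2, a log2 difference of -1.58. The same medians over the 2167 tested genes with a mean of at least 100 CPM were 0.25, 0.09 and 0.06, so the members followed the spread of other abundant genes. In the co-transfected group, the log2 difference of replicate 2 from replicate 1 had a correlation across genes of 0.30 with the GC share of each transcript's final 500 bases over the 75 members, and of 0.34 over 2055 abundant genes. The genes share both libraries and are not independent, and the part of base composition in the member levels was not tested.

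Replicate 2 of the co-transfected libraries held the highest value of 35 of the 75 members and the lowest of 16. No member had its highest value in miR-200a replicate 1, where 22 had their lowest. In log2 CPM relative to the NC mimic mean, the median member was at 0.03 and -0.03 in the NC mimic libraries, -0.15 and -0.12 with miR-200a, then -0.06 and 0.05 in the co-transfected libraries. The standard deviation over the members on this scale was 0.30 in the last library and at most 0.15 in the others.

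**Figure D3:**
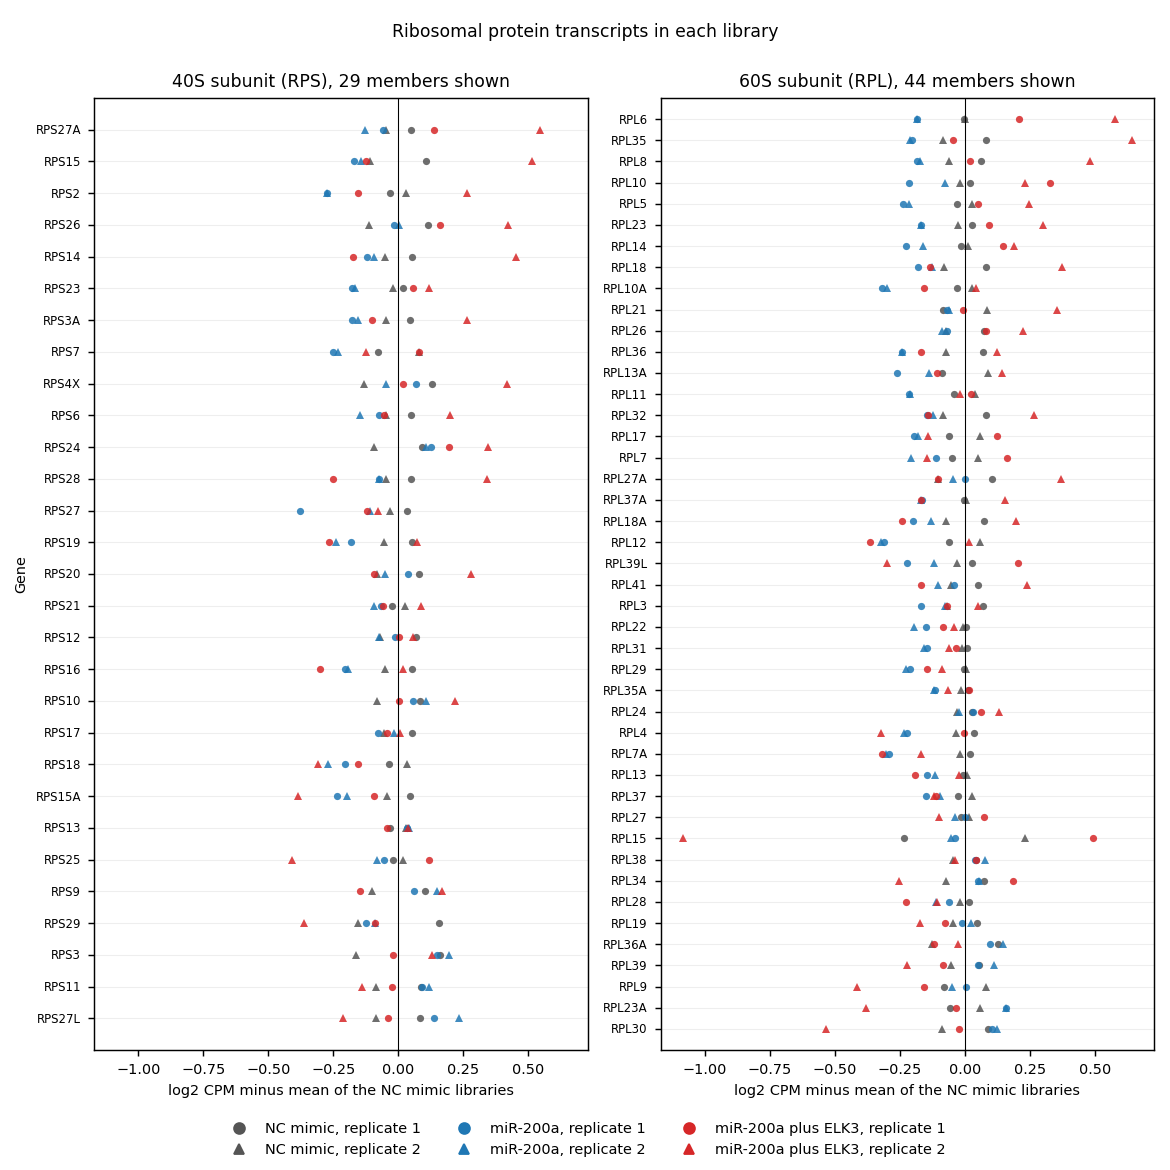
Log2 CPM of each member minus its mean in the NC mimic libraries (x axis), 1 row for each of 73 members, ordered from top to bottom by the fold change of miR-200a plus ELK3 over miR-200a, with colour for the group and shape for the replicate. Most blue points lie left of 0, and red triangles (miR-200a plus ELK3 replicate 2) lie far to the right at the top and far to the left at the bottom, with RPL15 at the extreme left.

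The first comparison, miR-200a against the NC mimic, asks which mRNAs the miRNA changes. No member passed the test (edgeR's quasi-likelihood test on all 6 libraries, Benjamini-Hochberg adjusted p under 0.05), and DESeq2 called none, where it called 0.488% of all genes. At an unadjusted p under 0.05, 4 of the 75 were lower and none higher, and 4.11% of all tested genes were lower and 5.13% higher, so the members' count was near the background. Few genes passed in this comparison, 0.213% of the 12650 tested as higher and 0.0553% as lower, and 0.508% of those at 100 CPM or more in either direction. Yet 59 of the 75 members had a log2 fold change below 0, against 52.8% of all tested genes and 1260 of 2167 at 100 CPM or more. The members' number was 52 to 58 under the other scalings. The median log2 fold change was -0.12 (all tested genes, -0.02, and those at 100 CPM or more, -0.04), the whole range -0.36 to 0.18, and the median standard error 0.12.

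Both miR-200a libraries lay below both NC mimic libraries in 47 members and above them in 6, where 26.1% and 22.9% of all tested genes did so. None of the 75 differed by more than 1.5-fold, as did 1.75% of the genes at 100 CPM or more.

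RPL12, at the base of the ribosomal stalk where elongation factors act, was among the lowest fold changes. It was at 447 and 485 CPM with the NC mimic and at 375 and 372 with miR-200a, with a log2 fold change of -0.32 ± 0.14 (SE, adjusted p = 0.529). The groups did not overlap.

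RPL10A, the protein of the mobile L1 stalk, was at 1060.3 and 1104 CPM with the NC mimic and 866 and 878 with miR-200a (-0.31 ± 0.11, adjusted p = 0.422). RPL7A, a 60S protein, was at 2641 and 2573 and then 2129 and 2111 CPM (-0.30 ± 0.10, adjusted p = 0.392). RPS2, at the mRNA entry, was at 1033 and 1077 and then 871 and 871 CPM (-0.28 ± 0.14, adjusted p = 0.601). RPL12, RPL10A, RPL7A and RPS2 lie in different places of both subunits, and none has a miR-200a match in its annotated 3′UTR.

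The highest fold change was that of RPS27L, a paralog of RPS27 known as a p53 target. RPS27L was at 138 and 123 CPM with the NC mimic and at 143 and 153 with miR-200a (log2 fold change 0.18 ± 0.14, adjusted p = 0.750), and its annotated 3′UTR of 5782 bases holds 2 matches to the miR-200a seed. RPS27 was at 205 and 196 CPM with the NC mimic and at 154 and 186 with miR-200a. The NC mimic and miR-200a libraries did not overlap in either gene, and the paralog and its parent lay on opposite sides of the NC mimic. RPS3 (0.16 ± 0.12), RPL23A (0.16 ± 0.14), RPL36A (0.12 ± 0.12) and RPS24 (0.11 ± 0.11) followed, with adjusted p of 0.753 to 0.844. The 9 members with a match to the seed had a median log2 fold change of -0.14, and the other 66 one of -0.12.

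The number called differed with the libraries that entered the fit. In a model of only the NC mimic and miR-200a libraries, 15 members were lower (adjusted p under 0.05) and none higher, where 3.17% and 4.72% of 12460 tested genes passed. They were 7 members of the 40S and 8 of the 60S subunit, among them RPL7A, RPL10A, RPS2, RPL12, RPL5, RPS18, RPL36, RPL4, RPS19, RPS7, RPS16, RPL35 and RPL29. Without replicate 1 of the co-transfected libraries there were 18 members lower and none higher, where 3.11% of all genes tested were lower and 4.4% higher. Without replicate 2 there were 16 lower and 1 higher, against 3.11% and 4.59%. Neither library enters the difference itself, and the cause of the change was not tested.

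By place in the ribosome, the members' lists had similar values in this comparison. The median log2 fold change was -0.09 for RPS and -0.15 for RPL members, -0.08 for 14 proteins of the 40S head, -0.11 for 16 of the 40S body and platform, -0.12 for 10 around the exit tunnel, -0.14 for 3 beside the peptidyl transferase centre and -0.08 for 14 genes in which mutations cause Diamond-Blackfan anaemia, a failure of red cell production. The 42 members with a TOP exactly at a listed start and the 17 without one there had medians of -0.11 and -0.12. The 17 include members with a tract within 10 bases of a start, such as RPL10A. Both members of the 5S RNP were below 0, with a median of -0.22. RPL11 was at 459 and 486 CPM with the NC mimic and at 408 and 408 with miR-200a. RPL5 was at 1593 and 1658 and then at 1379 and 1399 CPM. The miR-200a libraries of these genes were close to each other and below both NC mimic libraries.

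**Figure D4:**
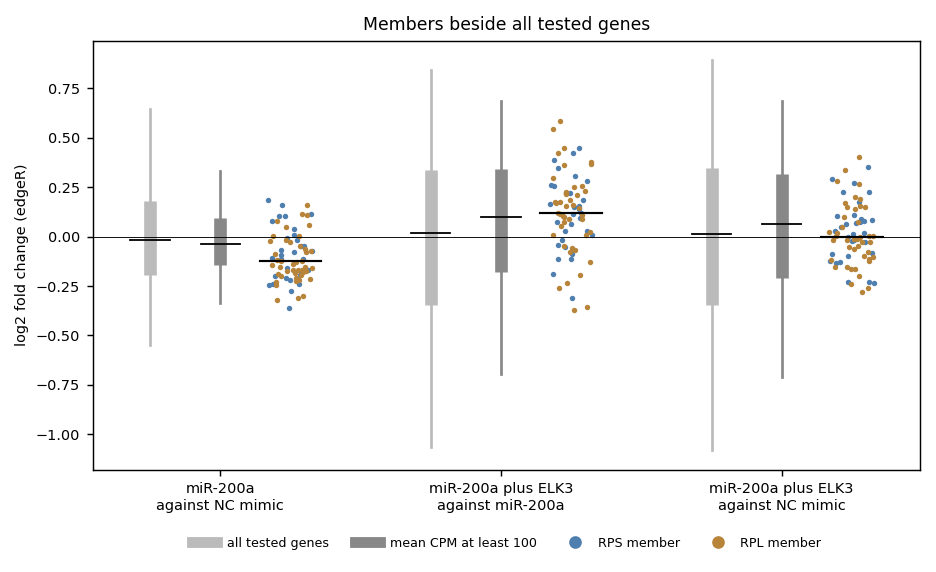
Log2 fold change (y axis, edgeR) of the 31 RPS and 44 RPL members (points, black line at their median) in the 3 comparisons (x axis), beside all tested genes and those with a mean of at least 100 CPM, drawn as the 5th to 95th percentile (thin line), the middle 50% (thick bar) and the median (black line). The members' median lies at -0.12, 0.12 and -0.002, and the members spread less than the other genes in all 3 comparisons.

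The second comparison, the co-transfected libraries against miR-200a, asks what the plasmid changes in cells that hold the mimic. RPL6, RPL10, RPL5 and RPL14, all of the 60S subunit, were higher (adjusted p under 0.05), and no member was lower. This is 4 of 75, where 7.03% of all tested genes were higher and 5.91% lower, and 22.4% of those at 100 CPM or more passed in either direction. Of the members, 18 had a log2 fold change below 0, against 48.8% of all tested genes and 865 of 2167 at 100 CPM or more. The members' number was 21 to 26 under the other scalings. Without replicate 2 of the co-transfected libraries it was 33 of 75, and the median log2 fold change was 0.024. With all libraries the median log2 fold change was 0.12, that of all tested genes 0.02 and that of genes at 100 CPM or more 0.10, and the range ran from -0.37 to 0.59.

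RPL6, a 60S protein also described as a partner of histone H2A after DNA damage, was at 1049.6 and 1052 CPM with the NC mimic, at 926 and 925 with miR-200a, and then at 1214 and 1567 in the co-transfected libraries. Both of the last libraries were above the other 4. The mean rose from 926 ± 0.224 to 1391 ± 249.7 CPM (SD, n = 2), a log2 fold change of 0.59 ± 0.13 (SE, adjusted p = 0.0190, edgeR). RPL6 was the only member that differed by more than 1.5-fold, as did 15.9% of the genes at 100 CPM or more. Its log2 fold change was 0.36 without replicate 2 and 0.75 without replicate 1 of the co-transfected libraries, and its adjusted p ran from 0.000117 to 0.158 over the alternatives that change other settings than the library left out.

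RPL10 joins the 60S subunit in the last steps of its assembly and reaches toward the peptidyl transferase centre. It was at 218 and 212 CPM with the NC mimic, at 186 and 204 with miR-200a, and then at 271 and 253 in the co-transfected libraries, with no overlap between the last group and the others. RPL10 rose by 0.42 ± 0.12 on the log2 scale (adjusted p = 0.0454), and its 3′UTR of 1485 bases holds 1 match to the miR-200a seed.

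RPL5, of the 5S RNP, was at 1379 and 1399 CPM with miR-200a and at 1684 and 1927 in the co-transfected libraries (log2 fold change 0.38 ± 0.11, adjusted p = 0.0469). RPL14, a 60S protein, was at 812 and 827 CPM with the NC mimic, at 701 and 732 with miR-200a, and then at 907 and 935 in the co-transfected libraries (0.36 ± 0.10, adjusted p = 0.0474). In all 4 genes the miR-200a libraries were the lowest of the 6. RPL11, the partner of RPL5, was at 481 and 466.5 CPM in the co-transfected libraries, above its miR-200a libraries, and did not pass.

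**Figure D5:**
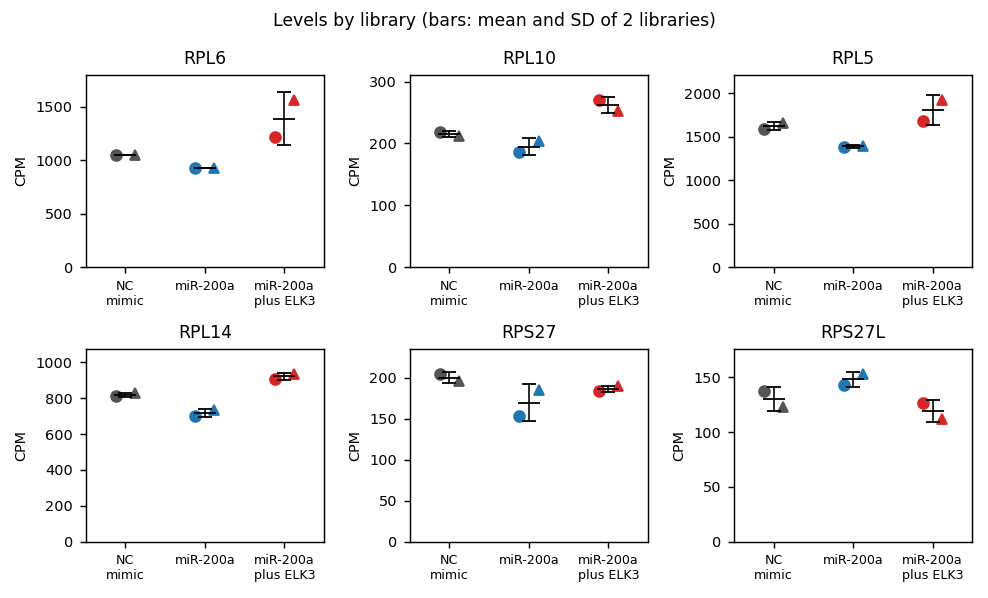
CPM on TMM-scaled library sizes (y axis, from 0) in each library (circle, replicate 1, triangle, replicate 2) of the 3 groups (x axis), with the mean and SD of 2 libraries, for the 4 members that passed the test and for RPS27 and its paralog RPS27L. In RPL6, RPL10, RPL5 and RPL14 both red points lie above both blue points, and in RPS27L both lie below them.

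These calls were close to the threshold. RPL6 alone was called with DESeq2, with RLE or upper-quartile scaling and with TMM factors set without the members, fits that called 6.34%, 12.5%, 11.9% and 12.3% of all genes. No member was called by limma on quantile-normalized values (0.846% of all genes called), in a model of only the 2 groups compared (4.38%), without NC mimic replicate 1 (4.38%) or 2 (4.4%), or without miR-200a replicate 1 (0.378%) or 2 (0.239%). Without replicate 1 of the co-transfected libraries, 34 members were higher and 11 lower, where 17.8% and 17.9% of all genes were. Without replicate 2 there were 11 higher and 6 lower, against 11.3% and 10.8%, which is near the background. These last fits leave 1 co-transfected library, which is assumed to vary like the other groups.

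RPL35, at the exit of the peptide tunnel, had the next largest log2 fold change after RPL6 and rested on replicate 2. It was at 1436 and 1282 CPM with the NC mimic, at 1177 and 1174 with miR-200a, and then at 1315 and 2119 in the co-transfected libraries. Its log2 fold change over miR-200a was 0.55 ± 0.18 (adjusted p = 0.0780), 0.84 without replicate 1 and 0.13 without replicate 2. RPL8, next to the peptidyl transferase centre, was at 913 and 922 and then 1054 and 1452 CPM (0.45 ± 0.15, adjusted p = 0.0689). RPS27A had a log2 fold change of 0.45 ± 0.13 (adjusted p = 0.0507), which replicate 2 also led, at 6291 CPM against 4738.

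Of the 5 lowest fold changes, 4 were of 60S genes too. RPL30 was at 2095 and 2124 CPM with miR-200a and at 1919 and 1345 in the co-transfected libraries (log2 fold change -0.37 ± 0.15, adjusted p = 0.137). RPL23A, at the tunnel exit where the signal recognition particle docks, was at 453 and 453 and then 396 and 312 CPM (-0.36 ± 0.14, adjusted p = 0.107). RPS27L was at 126 and 112 CPM in the co-transfected libraries, below both other groups' lowest library in replicate 2 (-0.31 ± 0.14 against miR-200a, adjusted p = 0.153), while RPS27 was at 184 and 189.7. RPL9 (-0.26 ± 0.14) and RPL39 (-0.23 ± 0.11), which lines the tunnel, had adjusted p of 0.238 and 0.188. The direction of RPS27L in this comparison and the previous one was thus opposite to that of the median member.

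RPL39 itself was at 748 and 695 CPM with the NC mimic, at 746 and 779.6 with miR-200a, and then at 679 and 618 in the co-transfected libraries. Its paralog RPL39L, otherwise known from testis and some tumours, was at 66.6 and 63.95 CPM, then 55.85 and 60.1, then 75.3 and 52.9. The paralog's last pair spanned all its other values. RPS6, the S6 kinase substrate, was at 1740.2 and 1628 CPM, then 1600.4 and 1519, then 1620.1 and 1933, and its co-transfected libraries overlapped the NC mimic range.

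Both co-transfected libraries lay above both miR-200a libraries in 33 members and below them in 9, against 30.2% and 28.0% of all tested genes. The median log2 fold change was 0.12 for RPS and 0.13 for RPL members, 0.07 for the 40S head, 0.18 for the 40S body and platform, 0.09 around the exit tunnel and 0.14 for the Diamond-Blackfan anaemia genes. The 3 genes beside the peptidyl transferase centre had a median of 0.42, with RPL10 called, and the pair of the 5S RNP one of 0.30, with RPL5 called. Members with a TOP exactly at a listed start had a median of 0.12, and the others with a promoter entry one of 0.15. The 22 with CCGGAAG in a promoter had a median of 0.18 and the 37 without it one of 0.11. Called higher were 1 of the 22 and 2 of the 37, where 7.03% of all tested genes were.

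The third comparison sets the co-transfected libraries against the NC mimic, and shares libraries with each of the others. No member passed, where 6.92% of all tested genes were higher and 5.95% lower, and 21.4% of the genes at 100 CPM or more passed in either direction. At an unadjusted p under 0.05, 4 members were higher and 1 lower, where 16.2% and 14.5% of all tested genes were. DESeq2 called no member and 6.5% of all genes. Of the members 38 lay below 0, against 49.1% of all tested genes and 923 of 2167 at 100 CPM or more. The members' median was -0.002, with values of -0.06 to -0.01 under the other scalings. The range ran from -0.28 to 0.40, and no member differed by more than 1.5-fold, whereas 15.6% of the genes at 100 CPM or more did.

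Both co-transfected libraries lay above both NC mimic libraries in 11 members and below them in 13, against 29.0% and 27.6% of all tested genes. The largest values were again those of RPL6 (0.40 ± 0.13, adjusted p = 0.0666), RPS27A (0.35 ± 0.13) and RPL35 (0.34 ± 0.18), followed by RPS26 (0.29 ± 0.17), which lies at the mRNA exit, and RPL10 (0.28 ± 0.12). The lowest were those of RPL9 (-0.28 ± 0.14), RPL30 (-0.26 ± 0.15), RPL7A (-0.24 ± 0.10), RPS15A (-0.24 ± 0.13) and RPS18 (-0.23 ± 0.11). RPL7A was at 2089 and 2319 CPM in the co-transfected libraries, near its miR-200a level and below both NC mimic libraries. Without replicate 1 of the co-transfected libraries 40 members were called in either direction, and 35.6% of all genes. Without replicate 2 these were 14 members and 22.3% of all genes.

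The 10 listed ribosomal proteins whose symbols follow other rules, among them RPSA, the stalk proteins RPLP0, RPLP1 and RPLP2, FAU, RACK1 (listed as GNB2L1), RPL36AL, RPL22L1 and RPL26L1, ran close to the members. With miR-200a 9 of these 10 were below 0 and none passed, with a median of -0.11. Of all tested genes, 52.8% were below 0 there, and 0.213% passed as higher and 0.0553% as lower. Against miR-200a, 8 of 10 were above 0 in the co-transfected libraries, with a median of 0.12. The test called 7.03% of all tested genes higher and 5.91% lower there. Of the 10, only RPL22L1, a paralog of RPL22 and named here after its value was seen, passed. It was at 257 and 269 CPM of the library total in the co-transfected libraries and at 173 and 168 with miR-200a, a rise of 0.66 ± 0.12 on the log2 scale (adjusted p = 0.00916, edgeR). None passed against the NC mimic, where 6.92% of all tested genes were higher and 5.95% lower.

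The 15 other mRNAs with a TOP encode elongation and initiation factors and partners such as PABPC1 and TPT1. With miR-200a all were below 0, by a median of -0.16, and none passed. In that comparison 52.8% of all tested genes were below 0, and 0.213% passed as higher and 0.0553% as lower. Over miR-200a, 10 of the 15 were above 0 in the co-transfected libraries and 5 below, with a median of 0.265. The test called 2 higher and 0 lower, against 7.03% and 5.91% of all tested genes. These 2 were EIF3A (0.84 ± 0.15, adjusted p = 0.00844, edgeR), the scaffold of initiation factor 3, and EEF1D (0.72 ± 0.20, adjusted p = 0.0420), of the nucleotide exchange complex of EEF1A. EEF1A1 was lower by 0.66 ± 0.26 on the log2 scale (adjusted p = 0.124) and did not pass. EEF1D was at 255 and 249 CPM with miR-200a and at 311 and 519.9 in the co-transfected libraries, of which replicate 1 lay within the NC mimic range of 299.5 to 334. Against the NC mimic EIF3A was higher (0.78 ± 0.15, adjusted p = 0.0108) and NAP1L1, a histone chaperone, lower (-0.49 ± 0.13, adjusted p = 0.0340). Of all tested genes, 6.92% were higher and 5.95% lower there. These TOP genes were named after their values were seen. EIF3A was at 757 and 1027 CPM of the library total in the co-transfected libraries and at 506 to 535 CPM in the other 4.

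Of 15 regulators of ribosomal protein synthesis, none passed with miR-200a, where 0.213% of all tested genes were higher and 0.0553% lower. Over miR-200a, LARP1, which binds the TOP, rose by 0.40 ± 0.11 on the log2 scale (adjusted p = 0.0393, edgeR). DDIT4, an inhibitor of mTORC1, fell by 0.57 ± 0.11 (adjusted p = 0.0130). Of all tested genes, 7.03% were higher and 5.91% lower there. DDIT4 was at 514 and 542 CPM of the library total with the NC mimic, at 416 and 419.7 with miR-200a, and then at 289 and 261 in the co-transfected libraries, without overlap between any groups. Against the NC mimic 3 regulators were higher, MTOR (0.83), EIF4EBP2 (0.50) and LARP1 (0.40), and 2 lower, TSC1 (-0.68) and DDIT4 (-0.93). Their adjusted p (edgeR) ran from 0.00136 to 0.0468, where 6.92% of all tested genes were higher and 5.95% lower. MYC, which drives transcription of ribosomal protein genes, had a log2 fold change of -0.75 ± 0.35 against the NC mimic and did not pass. MYC was at 93.3 and 84.8 CPM with the NC mimic and at 78.6 and 27.5 in the co-transfected libraries, so replicate 2 was the lower by far. Of 5 genes of the MDM2 and p53 branch that senses free RPL5 and RPL11, only MDM4 passed, and was lower against the NC mimic (-0.51 ± 0.13, adjusted p = 0.0318). The regulators and this gene were named after their values were seen, and their part in the members' levels was not tested.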

How the data were processed

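Gene expression was measured in 6 libraries of MDA-MB-231 cells made with the Lexogen QuantSeq 3′ kit. The deposited values are raw counts for each gene symbol, in 1 table per library. The submitters' processing notes name Bowtie2, edgeR and hg19 without versions, and the counting program and its treatment of reads that fit several places are not given in the sources used here. Each table has 25737 lines and 24462 symbols. Counts of the 286 symbols on several lines were summed, of which RPS18 was the 1 member. Groups and replicate numbers came from the sample labels.

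The test was that of edgeR 4.0.16 under R 4.3.3 (TMM, filterByExpr with a minimum count of 10, quasi-likelihood test, 1 model of all 6 libraries with 3 residual degrees of freedom). All 75 members were among the 12650 genes tested, and p-values were adjusted over all of them by the Benjamini-Hochberg method. Alternatives were DESeq2 1.42.0, limma 3.58.1 on quantile-normalized log2(count + 1), RLE, upper-quartile and member-free TMM factors, no filter or a stricter one, the highest line of each symbol, a limit of 10 CPM for members, a model of the compared groups only, a replicate block and leaving out each library. Shares of counts were compared by exact two-sided permutation tests. The procedure was tested on simulated data.

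Named members are those past the threshold, the 5 highest and 5 lowest fold changes in each comparison, the 6 most abundant, the nearest to the CPM limit, RPL5, RPL11, RPS6, and the paralogs with suffix L with their parents. The members, lists and rules were chosen with earlier results of these data known. Promoters were taken from RefSeq (GRCh38.p14), with entries for 59 members, and 3′UTRs from GENCODE release 29, matched by symbol and used for sequence only, since the counts rest on hg19. The reads carry no stated molecular identifiers, so the limit of 3 counts covers counting error only. Some genes that these rules select are not reported here by name.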

Additional observations from a re-analysis of the deposited data

How the results depend on the processing

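With 2 libraries a group, counts of called members differed between the alternatives. For miR-200a against the NC mimic, 15 members were called in a model of only the 2 groups (7.89% of all genes called). When 1 library was left out, 0 to 18 were called. The fit with 18 was that without miR-200a plus ELK3 replicate 1, which called 7.51% of all genes. For miR-200a plus ELK3 against miR-200a, 11 were called with no filter (13.4% of all genes called), 2 with at least 10 counts in each library (13.8%), 1 each with DESeq2 (6.34%), RLE (12.5%), upper-quartile (11.9%) and member-free TMM factors (12.3%), 0 with limma and in a model of only the 2 groups, and 0 to 45 when 1 library was left out. Against the NC mimic, 4 were called with no filter (13.5% of all genes) and 0 to 40 with 1 library left out. The fits with 45 and 40 members called were those without miR-200a plus ELK3 replicate 1. They called 35.7% and 35.6% of all genes, so calls were frequent over all genes too.

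The replicate block left 1 member called in the second comparison, RPL6 (adjusted p = 0.0347, edgeR), where 9.15% of all genes were called. The adjusted p with this block was 0.0831, 0.0843 and 0.0916 for RPL10, RPL5 and RPL14 (edgeR). The block changed neither other count, where 0.103% and 9.25% of all genes were called. The labels do not say whether replicate numbers pair the libraries. The correlation of deviations of same-numbered libraries was -0.00, -0.04 and -0.11 in the 3 comparisons. It cannot decide this, since each group gives only 1 independent deviation per gene. With the numbers crossed, an alternative chosen after seeing the data, 0, 3 and 0 members were called.

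The median log2 fold change of the members moved from -0.125 to -0.082 with limma in the first comparison, from 0.122 to 0.068 with limma, 0.055 with upper-quartile factors and 0.024 to 0.156 with 1 library left out in the second, and from -0.002 to -0.061 with upper-quartile factors and -0.069 to 0.051 with 1 library left out in the third. With 1 library left out, the difference in the share of counts was -0.68 (without NC mimic replicate 2) to -0.125 percentage points (without NC mimic replicate 1) in the first, 0.154 to 1.096 in the second and -0.249 to 0.693 in the third. Of the named members, 2 changed sign: RPL36A ran from -0.004 (without NC mimic replicate 2) to 0.250 with miR-200a, and RPL35 from -0.061 (without miR-200a plus ELK3 replicate 2) to 0.644 against the NC mimic. The cause of these changes was not tested.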
